A study of Mus musculus with 2 samples.

Results

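Cyclic AMP (cAMP) signalling genes were described in the hippocampus of 10-day-old mice through 42 genes, chosen by symbol: the adenylyl cyclases (Adcy), the numbered phosphodiesterases (Pde) and the subunits of protein kinase A (Prkar and Prkac), each with at least 1 protein-coding transcript. These were 42 of 21888 nuclear genes with such a transcript. They comprised 10 cyclases, 23 cyclic nucleotide phosphodiesterases, 4 regulatory and 2 catalytic PKA subunits, and 3 genes that match by name alone. Total RNA was sequenced from 2 libraries of a single group, and 2 quantifications were deposited for each, one from aligned reads, whose values are given unless stated, and one made from the reads directly (read-based). Each library pooled tissue from 3 female B6CASTF1/J mice, an F1 hybrid of the C57BL/6J and CAST/EiJ strains, and was made from 300 ng of RNA with ribosomal RNA reduced, a strand-aware kit and ERCC spike-ins. The labels call the tissue a layer of hippocampus and the pools biological replicates; no treatment, genotype contrast or second age was present, so the comparisons are between genes and between the 2 pools. Values are given as replicate 1, then replicate 2.

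In this pathway, receptors coupled to the stimulatory G protein activate adenylyl cyclases, which make cAMP from ATP. cAMP binds the regulatory subunits of PKA and releases the catalytic subunits, which phosphorylate channels, receptors and the transcription factor CREB, while phosphodiesterases hydrolyse cAMP and end the signal. In hippocampal neurons the calcium-stimulated cyclases link synaptic activity to cAMP, and PKA is known for its part in long-lasting synaptic potentiation.

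The libraries held 29858328 and 32275110 expected counts, so a count of 0 allows up to 3 counts. The 8 hippocampal field markers (Prox1 and Slc17a7 among them) were all detected, with summed levels of 854 and 1048 TPM (a library-scaled level per transcript length). The pools differed in some marker lists: the 8 myelin markers summed to 206 TPM in replicate 1 and 606 TPM in replicate 2, and the 4 thalamic markers to 50.7 and 32.5 TPM. Photoreceptor and pineal markers summed to 1.45 and 0.72 TPM, with Crx at 0 in both. In bulk tissue, fewer cells of a type and less RNA per cell cannot be told apart.

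Type I and type II regulatory subunits differ in the stretch that blocks the kinase, and the sequences are shown because the levels of the 2 types were far apart. Regulatory subunits hold the catalytic site with a segment that resembles a substrate. The 36 coding bases around it are shown from the GENCODE M21 transcripts, with the codon at the position that a substrate would have phosphorylated in capitals. It lies at chr11:109660116-109660118 (+ strand) for Prkar1a, chr5:139108535-139108537 (- strand) for Prkar1b, chr9:108714305-108714307 (+ strand) for Prkar2a and chr12:32038623-32038625 (- strand) for Prkar2b, all in coding exons of mm10.

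Prkar1a-201: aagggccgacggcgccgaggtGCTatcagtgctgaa
Prkar1b-201: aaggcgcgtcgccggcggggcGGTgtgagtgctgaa
Prkar2a-201: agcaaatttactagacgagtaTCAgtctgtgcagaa
Prkar2b-202: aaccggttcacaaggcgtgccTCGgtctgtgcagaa

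The capital codons encode alanine and glycine in the type I subunits, which cannot be phosphorylated there, and serine in both type II subunits, which are known to be phosphorylated by the catalytic subunit.

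Most of the pathway was expressed. Of the 42 genes, 35 had 1 TPM or more in both libraries (83.3%, against 59.4% of coding genes) and 24 had 10 TPM or more in both (57.1%, against 36.5%). The median of the 2-library mean was 19.6 TPM over the 42 genes and 3.88 TPM over coding genes. The summed level of the PKA regulatory subunits was the highest of the 4 enzyme classes, at 431 and 456 TPM (444 ± 17.9, SD, n = 2), followed by the phosphodiesterases at 373 and 349 TPM (361 ± 17.2, SD, n = 2). PKA catalytic subunits summed to 218 and 235 TPM (226 ± 12.3, SD, n = 2) and cyclases to 231 and 218 TPM (224 ± 9.60, SD, n = 2). Those last sums were close, and their order differed between the libraries.

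**Figure D1:**
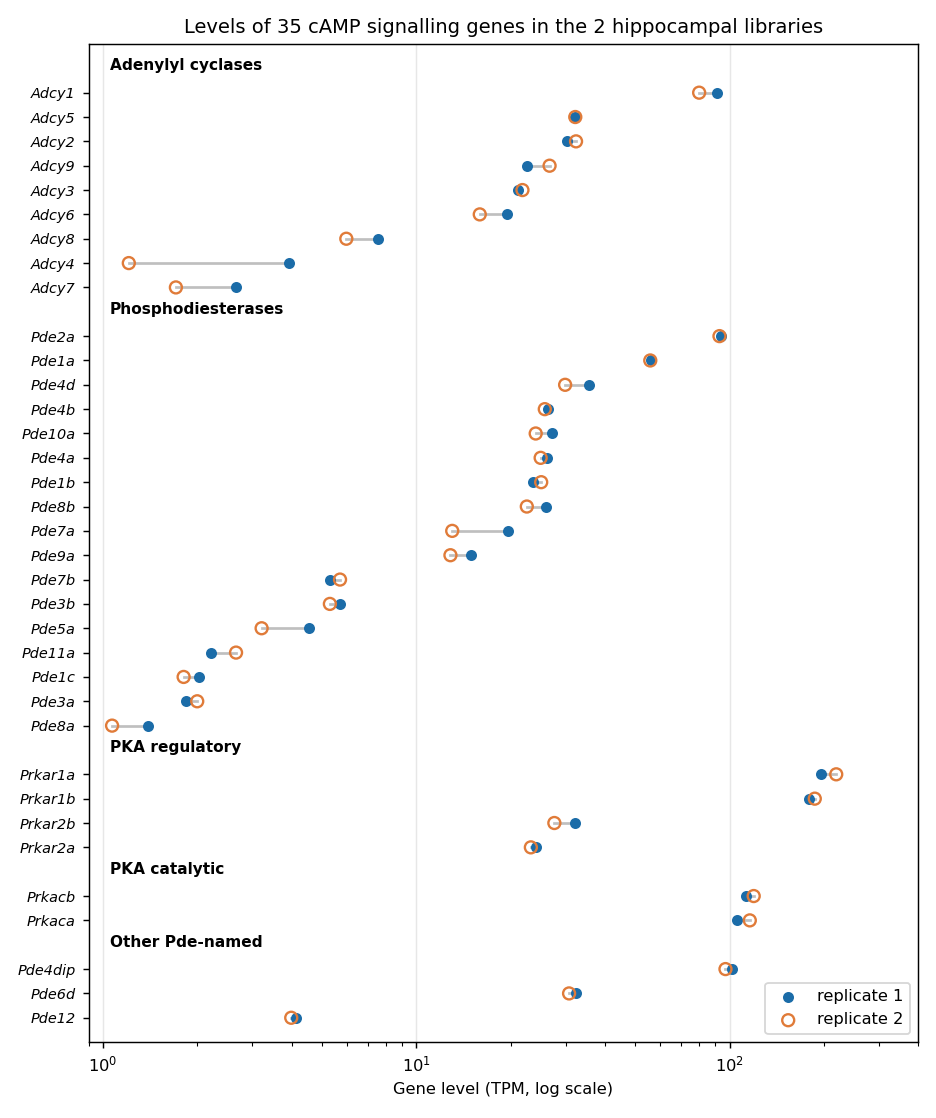
Level of each of the 35 genes with a mean of 1 TPM or more (TPM, log axis), grouped by class and ordered by mean, with replicate 1 as filled and replicate 2 as open circles joined by a grey line. PKA subunits lie between 23.2 and 219 TPM, and Adcy4 has the widest gap between the libraries.

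With 2 libraries of 1 group, no test was run (the smallest p of an exact two-sided sign-flip test would be 0.5). A within-library difference between 2 genes or groups was therefore counted as beyond the spread where both libraries gave the same sign and the mean log2 ratio exceeded 2 SD. Of 19 such pairs, 16 met this, 11 with the first-named gene higher and 5 with the second. The log2 ratios were taken after adding 0.1 TPM, which understates ratios of low genes.

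The cyclases were led by Adcy1 (mm10, chr11:7063489-7178506, + strand), a calmodulin-stimulated enzyme of neurons, with 91.3 and 79.9 TPM (22873 and 21983 counts). It alone held 38.1 ± 1.95% of the summed cyclase level (SD, n = 2), and its mean exceeded that of 95.2% of coding genes. Adcy8, the other calmodulin-stimulated neuronal cyclase, had 7.52 and 5.98 TPM, so that Adcy1 was 12.6-fold higher (log2 3.65 ± 0.09, SD, n = 2). Adcy3, best known from olfactory neurons and primary cilia, had 21.1 and 21.8 TPM. These 3 calcium-stimulated cyclases together made up 50.6 ± 1.67% of the cyclase level.

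Adcy5 and Adcy6 are the calcium-inhibited pair and together held 22.2 ± 0.166% of the cyclase level. Adcy5, known as the main striatal cyclase, had 32.1 and 32.2 TPM. Adcy6 had 19.5 and 15.9 TPM and was 1.82-fold lower than Adcy5 (log2 −0.86 ± 0.21, SD, n = 2). The calcium-stimulated sum exceeded the calcium-inhibited one 2.28-fold (log2 1.19 ± 0.04, SD, n = 2). All 6 listed striatal markers were detected, with a sum of 29.5 and 26.5 TPM. The receptor genes Drd1 (2.43 and 1.35 TPM), Drd2 (1.88 and 1.68 TPM) and Adora2a (2.19 and 2.42 TPM) were lower than Ppp1r1b (10.6 and 12.6 TPM) and Rgs9 (10.5 and 7.24 TPM).

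Adcy2, Adcy4 and Adcy7 are stimulated by G protein βγ subunits. Together they had 36.9 and 35.2 TPM, or 16.1 ± 0.167% of the cyclase level, and Adcy2 supplied 30.3 and 32.3 TPM of it. Adcy7 had 2.66 and 1.71 TPM, and Adcy4 had 3.92 and 1.21 TPM, the least repeatable value of the 35. Adcy9, a cyclase little affected by forskolin, had 22.6 and 26.6 TPM, 3.47-fold below Adcy1 (log2 ratio of Adcy1 over Adcy9 1.79 ± 0.30, SD, n = 2). The soluble, bicarbonate-sensitive cyclase Adcy10 had 5 and 4 counts. In the order of the 9 expressed cyclases, 3 of 8 neighbouring steps exceeded the spread: Adcy1 above Adcy5, Adcy2 above Adcy9, and Adcy6 above Adcy8.

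**Figure D2:**
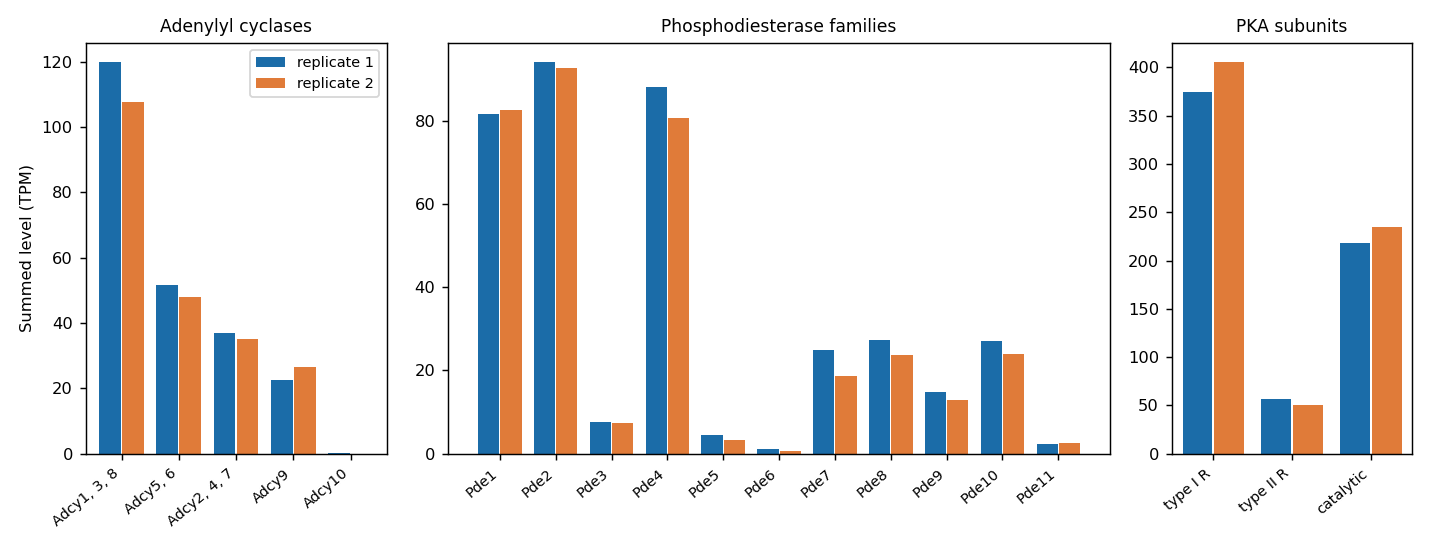
Summed TPM (bars from 0) of cyclase groups, phosphodiesterase families and PKA subunit groups in replicate 1 (left bar) and replicate 2 (right bar); the panels have separate vertical scales. Type I regulatory subunits (374.7 and 405.4 TPM) stand far above type II (56.1 and 50.8 TPM), and the Pde1, Pde2 and Pde4 families stand above the other phosphodiesterase families.

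Phosphodiesterases were spread over more genes, and families with dual specificity, which hydrolyse cAMP and cGMP, held 58.5 ± 2.17% of the summed level. Pde2a (chr7:101421691-101512827, + strand), a dual enzyme activated by cGMP, led with 94.1 and 92.7 TPM, or 25.9 ± 0.968% of the class. The Pde4 family (23.4 ± 0.364%) and the calmodulin-activated Pde1 family (22.8 ± 1.28%) were close behind; in the read-based table Pde1 (134 TPM) and Pde4 (132 TPM) had higher mean sums than Pde2a (123 TPM). Of the Pde1 genes, Pde1a had 56.0 and 55.8 TPM, Pde1b 23.6 and 25.0 TPM and Pde1c 2.03 and 1.81 TPM. Pde1a was 2.29-fold above Pde1b (log2 1.20 ± 0.06, SD, n = 2).

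The other dual enzymes were lower. Pde10a, abundant in striatal projection neurons, had 27.1 and 24.0 TPM, 3.65-fold below Pde2a (log2 ratio of Pde2a over Pde10a 1.87 ± 0.11, SD, n = 2). Pde3b and Pde3a are inhibited by cGMP: Pde3b had 5.69 and 5.30 TPM and Pde3a 1.84 and 2.00 TPM. Pde3a was 2.77-fold lower than Pde3b (log2 −1.47 ± 0.15, SD, n = 2). Pde11a had 2.21 and 2.66 TPM.

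The cAMP-specific families Pde4, Pde7 and Pde8 held 36.4 ± 1.67% of the phosphodiesterase level, below the dual enzymes (log2 −0.68 ± 0.12, SD, n = 2). Most of that came from the Pde4 family, the rolipram-sensitive enzymes, with a sum of 88.2 and 80.6 TPM. Its brain members were close together: Pde4d had 35.6 and 29.8 TPM, Pde4b 26.3 and 25.7 TPM, and Pde4a 26.1 and 24.9 TPM. Pde4d stood just above Pde4b (log2 0.32 ± 0.16, SD, n = 2), while Pde4a and Pde4b differed by less than the spread (log2 −0.03 ± 0.02, SD, n = 2). The fourth gene, Pde4c, had 16 and 10 counts.

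The rolipram-insensitive cAMP-specific families each had a higher and a lower gene. Pde8b had 25.9 and 22.5 TPM and Pde8a 1.39 and 1.07 TPM, which made Pde8a 18.4-fold lower (log2 −4.20 ± 0.10, SD, n = 2), the largest ratio of the 19 pairs. Pde7a had 19.6 and 13.0 TPM and Pde7b 5.30 and 5.71 TPM (log2 1.52 ± 0.49, SD, n = 2). The spread of that last ratio came mainly from Pde7a, whose levels in the 2 libraries were 1.498-fold apart. Coding transcripts held 36.8 and 48.1% of the Pde7a level but 90.4 and 87.5% of the Pde7b level. The coding levels of Pde7a and Pde7b were thus closer than their gene levels.

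The cGMP-specific enzymes Pde9a, with 14.9 and 12.9 TPM, and Pde5a, the sildenafil target, with 4.54 and 3.21 TPM, held 4.90 ± 0.429% of the class. The photoreceptor enzymes were all under 1 TPM in the alignment-based table: Pde6h had 11 and 18 counts, Pde6b 6 and 4, Pde6g 5 and 2, Pde6c 4 and 6, and Pde6a 4 and 0. In the read-based quantification, Pde6a had 3.66 and 4.35 TPM and Pde6h 1.298 and 1.714 TPM. Pde6a-202, a transcript with 545 coding bases, held 97.8 and 99.4% of that Pde6a level. Of 16 neighbouring steps among the 17 expressed phosphodiesterases, 5 exceeded the spread: Pde2a above Pde1a, Pde1a above Pde4d, Pde4d above Pde4b, Pde8b above Pde7a, and Pde9a above Pde7b. From Pde4b through Pde10a, Pde4a and Pde1b to Pde8b, no neighbours differed beyond it.

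The 3 genes matched by name alone are not enzymes of cyclic nucleotides. Pde4dip (myomegalin), a centrosomal and Golgi scaffold that binds Pde4d, had 102 and 96.9 TPM, above Pde2a, the highest phosphodiesterase; the read-based quantification had the opposite order, with Pde4dip at 113 and 114 TPM and Pde2a at 114 and 132 TPM. Pde6d, a carrier of prenylated proteins, had 32.3 and 30.7 TPM, and Pde12, a mitochondrial 2′-phosphodiesterase of RNA, had 4.13 and 3.99 TPM. They stayed out of the class sums.

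The 4 highest of the 42 genes were PKA subunits. Prkar1a (chr11:109649405-109669656, + strand), the broadly expressed type I regulatory subunit, had 196 and 219 TPM (12391 and 15638 counts), and Prkar1b (chr5:139017306-139150001, - strand), its neuronal counterpart, 179 and 187 TPM (9063 and 10494 counts). The type II subunits were lower, with Prkar2b, the neuronal form, at 32.1 and 27.6 TPM and Prkar2a at 24.0 and 23.2 TPM. Type I transcripts made up 87.9 ± 1.34% of the regulatory level and exceeded type II 7.29-fold (log2 2.87 ± 0.18, SD, n = 2). Each of the 3 steps in the order Prkar1a, Prkar1b, Prkar2b, Prkar2a exceeded the spread, although the first was small (log2 0.18 ± 0.07, SD, n = 2) and had the opposite sign, at log2 −0.82, in the read-based quantification. The third step, Prkar2b above Prkar2a, was within the spread there (log2 ratio of Prkar2a over Prkar2b −0.038 ± 0.081, against −0.33 ± 0.12 in the alignment-based table, SD, n = 2).

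The catalytic subunits were near parity: Prkacb had 113 and 119 TPM, and Prkaca 105 and 116 TPM. Their log2 ratio, Prkaca over Prkacb, was −0.07 ± 0.04 (SD, n = 2), within the spread; in the read-based quantification it was −0.36. Regulatory transcripts exceeded catalytic ones 1.96-fold (log2 0.97 ± 0.02, SD, n = 2). A cell's holoenzyme pairs regulatory and catalytic subunits in equal number, but these are RNA levels, and protein was not measured.

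Both catalytic genes start from alternative first exons, and the main transcripts differ at the coding start. The first 75 coding bases are shown with the part in the first coding exon in capitals, since that part decides whether the protein begins with the myristoylated end typical of the major forms. In mm10 the capital bases lie at chr8:83973187-83973232 and chr8:83977073-83977094 (+ strand) for the Prkaca pair, and at chr3:146812638-146812683 and chr3:146769934-146769940 (- strand) for the Prkacb pair.

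Prkaca-201: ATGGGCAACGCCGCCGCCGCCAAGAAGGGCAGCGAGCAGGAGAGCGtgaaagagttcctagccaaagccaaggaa
Prkaca-202: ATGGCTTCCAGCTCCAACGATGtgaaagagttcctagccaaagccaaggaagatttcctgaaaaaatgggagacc
Prkacb-202: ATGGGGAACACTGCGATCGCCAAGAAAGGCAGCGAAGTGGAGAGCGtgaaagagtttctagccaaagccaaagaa
Prkacb-203: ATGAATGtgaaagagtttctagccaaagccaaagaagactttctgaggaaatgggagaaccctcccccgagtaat

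Within each gene the coding sequences share their last 1008 bases. Over their 1053 coding bases, Prkaca-201 and Prkacb-202 were 80.2% identical without gaps. Prkaca-201 held 98.9 and 99.7% of the Prkaca transcript abundance, while Prkaca-202, the form with the short first exon known from sperm, held 1.11 and 0.29%. In the read-based quantification Prkaca-201 held 85.3 and 75.5% and Prkaca-202 14.7 and 24.5%, so the level of the second form is uncertain. Prkacb was divided: Prkacb-202 held 50.1 and 48.6%, and Prkacb-203, whose first exon adds 7 coding bases, held 14.2 and 14.1% (1311 and 1514 counts). A further 23.5 and 25.8% was given to Prkacb-208, a 493-base transcript, from 215 and 275 counts; shares of abundance are per length, so short transcripts gain a large share from few reads. The read-based quantification gave Prkacb-202 39.6 and 38.3%, Prkacb-203 7.28 and 6.68%, and Prkacb-208 0 in both libraries.

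The 2 quantifications deposited for each library did not always give reads to the same transcript. Prkar1a-201 held 77.2 and 82.9% of Prkar1a in the alignment-based table and 26.1 and 28.9% in the read-based one, where Prkar1a-203 held 67.1 and 67.0%, against 14.4 and 12.3% in the alignment-based table. Their coding sequences were identical over 1143 bases, so the choice between them does not alter the encoded protein. The same holds for Prkar2b-202 (53.1 and 52.4%) and Prkar2b-201 (44.6 and 47.0%), which share all 1248 coding bases.

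For Prkar1b the tables gave different levels as well. Prkar1b-201 held 95.1 and 96.8% in the alignment-based table, against 12.7 and 7.90% in the read-based one, where shorter transcripts such as the 918-base Prkar1b-204 (21.2 and 14.0%) took large shares. Gene counts hardly differed between the tables, at 9063 and 10494 expected counts against 9565 and 11136 estimated counts, but TPM was 179 and 187 against 426 and 605. Read-based TPM was higher in general, by a median of 1.57-fold over coding genes, against 2.82-fold for Prkar1b. Prkar1a had 270 and 305 TPM in the read-based table, below Prkar1b there, while its counts (13073 and 16340) stayed above those of Prkar1b. The rank of these top 2 genes by TPM thus depended on the table, and their rank by counts did not.

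**Figure D3:**
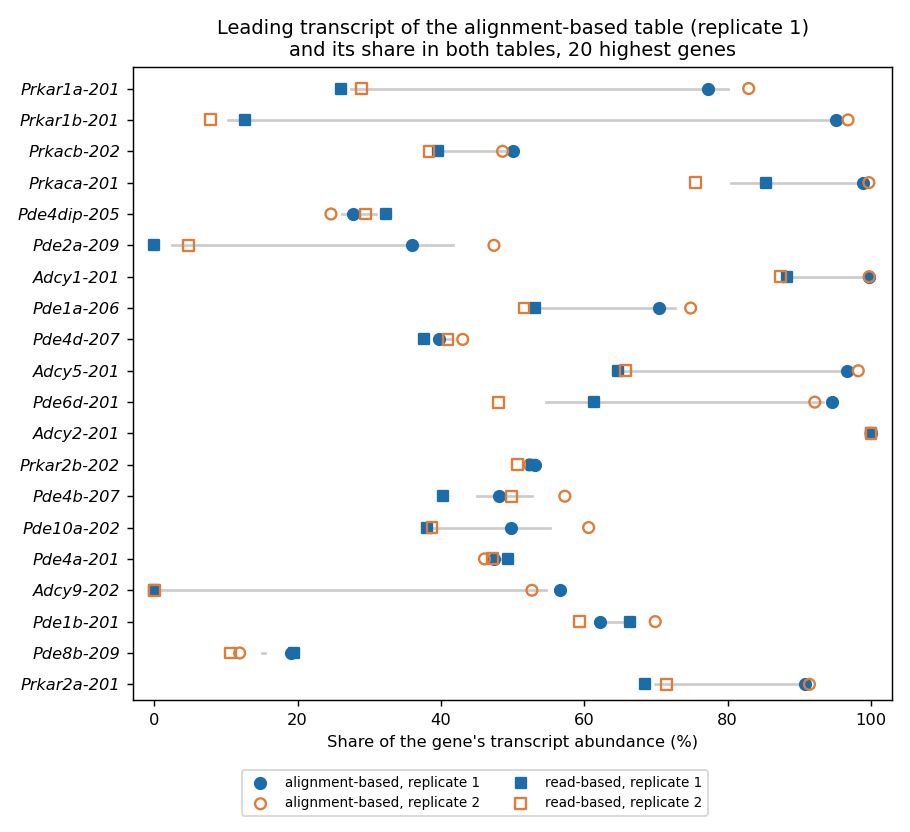
Share of transcript abundance (%) of the leading transcript of the 20 highest genes, the leader being taken from replicate 1 of the alignment-based table; circles show that table and squares the read-based one, filled for replicate 1 and open for replicate 2, with a grey line joining the means of the tables. Prkar1b-201, Prkar1a-201, Pde2a-209 and Adcy9-202 lie far apart between tables, and Adcy2, with 1 annotated transcript, lies at 100%.

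Across the 33 expressed genes with more than 1 transcript, 28 had the same leading transcript in both libraries (84.8%, against 87.9% of coding genes), and 21 had it in both libraries and both tables (63.6%, against 65.0%). The 5 exceptions of the alignment-based table were Adcy3, Adcy4, Pde4a, Pde5a and Pde8b. Protein-coding transcripts held a median of 92.2% of a gene's abundance, against 88.7% over coding genes. Of the 35 genes, 2 were under 60% (15.9% of coding genes were), namely Pde2a with 44.4 ± 5.11% and Pde7a with 42.5 ± 7.95% (SD, n = 2). Which genes were under it depended on the table. Read-based shares put Pde2a above 60% (84.3 and 72.9%) and left Pde7a under it (32.7 and 41.4%). Pde5a (37.9 and 42.1%) and Pde9a (51.0 and 30.0%) were also under it there. Pde6d (65.0 and 49.0%) was under it there in replicate 2 and as a mean, and Pde8b (55.3 and 81.0%) in replicate 1 alone.

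In Pde2a the largest share, 35.9 and 47.4%, went to Pde2a-209, a transcript annotated as a target of nonsense-mediated decay, 28.2 and 24.4% to the coding Pde2a-201, and 19.8 and 16.3% to the coding Pde2a-204. The read-based table gave Pde2a-209 0.023 and 4.80%, Pde2a-201 29.1 and 25.2%, and Pde2a-204 37.0 and 43.8%. Exons of Pde2a also overlap those of Gm45837 on the same strand over 64.3% of their bases. Gm45837 had 0 and 61.9 expected counts in the alignment-based table, against 1414 and 1388 estimated counts in the read-based one, while Pde2a had 6765 and 7612 against 6080 and 7031. The level of Pde2a is therefore uncertain by the reads that could belong to either gene.

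In Pde7a the leading transcript was Pde7a-204, a retained-intron fragment of 670 bases, with 31.9 and 34.6% of the abundance from 73.6 and 58.4 counts. The coding transcripts Pde7a-201 and Pde7a-202 had 324 and 348 counts and 461 and 384 counts, although their shares were 18.4 and 27.1%, and 18.4 and 21%. Most Pde7a reads thus belonged to coding transcripts while most of its TPM did not. The leader depended on the table: read-based shares were 7.13 and 8.31% for Pde7a-204, and the coding Pde7a-201 led with 16.6 and 24.0%.

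The Pde4 genes make long and short forms that differ in their regulatory ends, and several forms were present in each. Pde4d-207, with 1752 coding bases, led with 39.8 and 43.0%, ahead of the longer Pde4d-205 (2109 coding bases, 11.1 and 17.4%) and Pde4d-208 (2409 coding bases, 10.8 and 10.7%). Pde4d-207 also led in the read-based table (37.6 and 41.0%). Pde4d-205 held 0.087 and 8.83% there and Pde4d-208 16.2 and 9.10%, so the level of Pde4d-205 is uncertain. Pde4b-207 (2163 coding bases) held 48.1 and 57.3% and the short Pde4b-202 (1509 coding bases) 18.5 and 19.2%. Pde4a was split evenly: Pde4a-202 (2532 coding bases) held 45.4 and 51.3% and Pde4a-201 (1830 coding bases) 47.4 and 46.1%, so its leader changed between libraries by a few percent. For Pde4c, the transcript shares rest on 16 and 10 counts and are not interpretable.

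Among the other abundant genes, Adcy1-201, a transcript of 12259 bases, held 99.7 and 99.8% of Adcy1, against 88.3 and 87.4% in the read-based table. Adcy5-201 held 96.6 and 98.2% of Adcy5, against 64.6 and 65.7% there. Pde1a-206 and Pde1a-204 encode 1635 bases each and held 70.4 and 74.8%, and 18.6 and 16.5%; the read-based table gave 53.1 and 51.6%, and 36.4 and 34.1%. Pde6d-201 held 94.6 and 92.2%, against 61.4 and 48.1% in the read-based table. These leading transcripts all had smaller shares in the read-based table. Pde4dip was the most divided, with Pde4dip-205 leading at 27.7 and 24.7%. The coding Pde4dip-203 held 16.1 and 17.2%, Pde4dip-201 13.5 and 14.0%, and Pde4dip-202 13.5 and 13.2%. The short noncoding Pde4dip-207 (536 bases) and Pde4dip-208 (414 bases) held 12.0 and 15.3%, and 13.0 and 12.2%, against 0.0024 and 7.12%, and 0 in both libraries, when quantified from the reads directly.

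The 2 pools gave similar levels for nearly all of the genes. The replicate 1 over replicate 2 ratio had a median of 0.06 on the log2 scale over the 35 genes and 0.07 over coding genes at a mean of 1 TPM or more, and the median absolute log2 ratio was 0.14 and 0.15. Scaling to the spike-ins moved these medians to 0.20 and 0.25. In TPM, 2 of 35 genes were past 1.5-fold between the libraries, Adcy4 (3.07-fold) and Adcy7 (1.52-fold), both higher in replicate 1. The background was 4.94% of 13214 coding genes past 1.5-fold in either direction, 3.83% with replicate 1 higher (2 of the 35) and 1.11% with replicate 2 higher (0 of the 35), so the share among the cAMP genes was near it. Pde7a lay just inside at 1.498-fold.

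The Adcy4 values differed more in assigned transcript length than in reads. The gene had 118 and 93 counts, which is 1.32-fold after scaling the libraries by their median count ratio (log2 0.40 with a counting SE of 0.20). Its effective length was 1458 bases in replicate 1 and 3400 bases in replicate 2, the one gene of the 35 with lengths more than 1.5-fold apart (0.734% of coding genes were). In replicate 1, Adcy4-205, a fragment of 256 bases, held 53.7% of the abundance from 6.83 counts; in replicate 2 it had 0 counts, which allows up to 3. In the read-based table Adcy4 had 2.55 and 1.92 TPM.

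Adcy7 had 301 and 223 counts, 1.41-fold apart after the same scaling (log2 0.49 with a counting SE of 0.13). On scaled counts 0 of the 35 genes were past 1.5-fold, against 3.16% of coding genes, made up of 1.98% where replicate 1 was the higher library and 1.18% where replicate 2 was. Pde5a showed the same kind of gap as Adcy4 on a smaller scale, at 1.40-fold in TPM and 0.982-fold in scaled counts. Thalamic markers were also higher in replicate 1 (median log2 ratio 0.72) and myelin markers lower (−1.68). The other marker lists with expressed genes had medians from −0.25 (hippocampal fields) to 0.34 (striatum). Among them, endothelial markers had 0.08, mural markers 0.24 and microglial markers −0.17. The part of any of these lists in the Adcy4 and Adcy7 values was not tested.

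**Figure D4:**
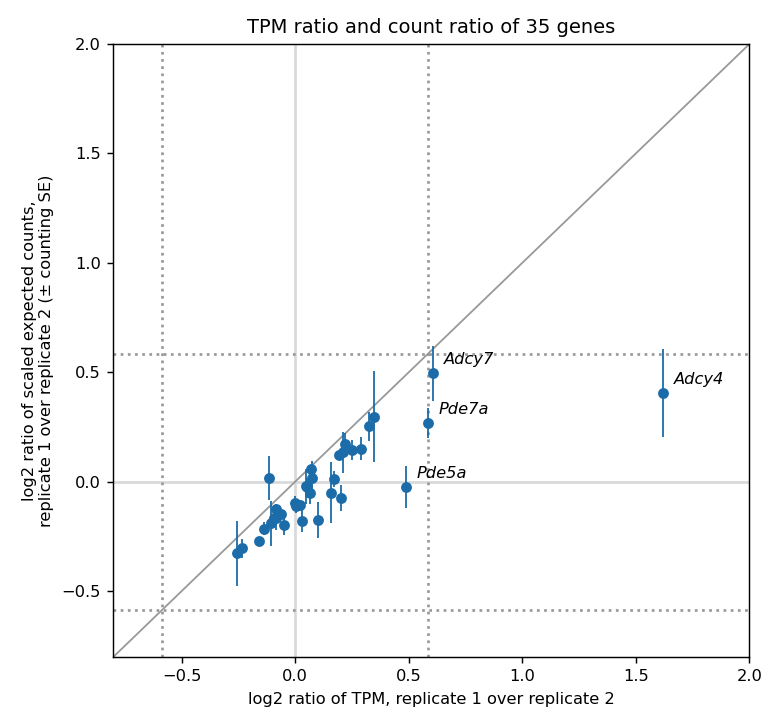
Log2 ratio of replicate 1 over replicate 2 for the 35 genes, in TPM (horizontal) and in expected counts scaled by the median ratio (vertical, with the counting SE as bars); dotted lines mark 1.5-fold and the diagonal marks equality. Adcy4 lies far to the right of the diagonal, at 3.07-fold in TPM and 1.32-fold in counts.

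Genes upstream of the cyclases ranged widely. Of 19 receptors coupled to the stimulatory G protein, 14 had 1 TPM or more in both libraries, and the medians over all 19 were 2.61 and 2.52 TPM. Adcyap1r1, the receptor for the neuropeptide PACAP, had 71.0 and 71.7 TPM. The constitutively active orphan receptor Gpr12 had 20.2 and 20.5 TPM, and the serotonin receptor Htr4 7.13 and 6.86 TPM. Of the 14, 2 were past 1.5-fold between libraries, against 4.94% of coding genes: Drd1, with 131 and 87 counts, and Htr6, with 119 and 184 counts.

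All 7 G protein α subunits were detected and none was past 1.5-fold. Gnas, the stimulatory subunit, had 819 and 998 TPM, and Gnao1 and Gnai2, of the inhibitory family, had 394 and 359 TPM, and 115 and 113 TPM. The gene level of Gnas thus stood above the summed level of the cyclases in both libraries. Its transcripts were not examined.

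Of 16 genes for A-kinase anchoring proteins, which tether PKA to sites in the cell, 13 were detected and 0 of those were past 1.5-fold. Map2, a dendritic microtubule protein that binds type II PKA, had 490 and 447 TPM. Akap11 had 67.9 and 68.0 TPM and Akap6 62.4 and 62.3 TPM. All 3 inhibitor peptides of the catalytic subunit were detected: Pkia had 162 and 141 TPM, Pkig 38.5 and 40.1 TPM and Pkib 2.99 and 3.87 TPM. Pkia was above either catalytic subunit gene in both libraries. Read-based values kept it above Prkacb in replicate 1 (239 against 213 TPM) but not in replicate 2 (226 against 230 TPM).

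Among cAMP effectors other than PKA, 8 of 9 were detected, led by the exchange factor Rapgef4 (Epac2) with 68.3 and 72.8 TPM. The pacemaker channel Hcn2, which cAMP binds directly, had 36.9 and 40.1 TPM. All 8 genes of the CREB arm were detected, with medians of 15.1 and 12.7 TPM. Its highest gene was the CREB coactivator Crtc1, with 49.8 and 42.3 TPM, and the acetyltransferases Crebbp and Ep300 had 31.3 and 33.6 TPM, and 25.3 and 29.1 TPM.

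The 4 listed phosphoproteins that PKA phosphorylates were led by Arpp21 with 169 and 131 TPM. Arpp19 followed with 82.3 and 65.3 TPM and Ppp1r1a with 64.2 and 54.0 TPM. Of the cGMP arm, 7 of 8 genes were detected; Gucy1b1 and Gucy1a2, subunits of the nitric oxide-activated guanylyl cyclase, had 50.7 and 48.3 TPM, and 28.6 and 26.8 TPM, and the natriuretic peptide receptor Npr2 had 21.5 and 17.2 TPM. In each of these lists other than the receptors, 0 of the detected genes were past 1.5-fold; with 4.94% of coding genes past it, lists of this size say little on that point.

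**Figure D5:**
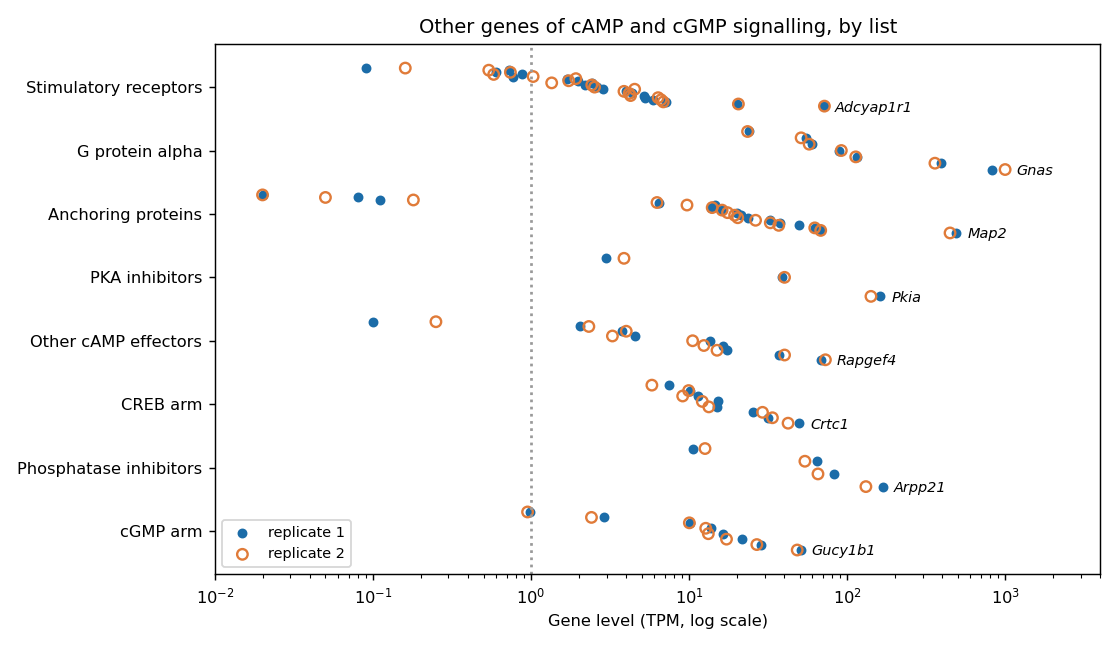
Levels of listed genes of cAMP and cGMP signalling (TPM, log axis) by list, with replicate 1 as filled and replicate 2 as open circles; the dotted line marks 1 TPM and the highest gene of each list is named. G protein genes lie between 23.4 and 998 TPM, while most stimulatory receptors lie under 10 TPM.

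Since CREB is the nuclear target of PKA, the promoters of the 42 genes were searched for its full site, TGACGTCA (palindromic, so the same on both strands). RefSeq windows of 300 bases, 250 before to 50 after a start on GRCm38.p6, were found for 33 of the 42 genes. The site occurred in Prkar1a alone of these 33, in windows of 2 starts that share the same copy. Of all 27025 genes with a window, 2.03% had the site, so 1 of 33 is near that share. By windows, 2 of 71 among these genes contained it, against 1.79% of all 32851. The window at chr11:109650699-109650998 (+ strand) is shown because it holds that copy. The capitals mark the site, which lies 49 bases before that start.

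Prkar1a promoter window 2: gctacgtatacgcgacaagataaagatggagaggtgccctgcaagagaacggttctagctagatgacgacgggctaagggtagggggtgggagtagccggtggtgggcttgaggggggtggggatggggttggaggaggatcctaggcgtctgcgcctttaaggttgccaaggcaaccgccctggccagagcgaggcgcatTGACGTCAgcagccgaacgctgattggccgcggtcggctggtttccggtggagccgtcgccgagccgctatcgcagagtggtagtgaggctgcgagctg

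The annotated start of Prkar1a-201, with 77.2 and 82.9% of Prkar1a in the alignment-based table and 26.1 and 28.9% in the read-based one, lies inside the window at chr11:109650921. Prkar1a-203, the leading transcript of the read-based table with 67.1 and 67.0%, starts outside it, at chr11:109649405. A match of letters is a description of this window, and no binding was measured.

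Exons of 13 of the 42 genes overlap those of another annotated gene, 10 on the opposite strand and 4 on the same strand. The largest overlaps were those of Pde2a, given above, and of Adcy3 with Cenpo, on the opposite strand over 22.1% of the exonic bases of Adcy3. Cenpo had 121 and 128 counts, against 1803 and 2162 for Adcy3. A smaller overlap, of Pde12 with Arf4 on the opposite strand, covered 6.82% of the exonic bases of Pde12. There the neighbour had more counts, 2351 and 2552 for Arf4 against 651 and 690 for Pde12. No source used here says whether the counting read the strand, so reads in these stretches cannot be assigned with certainty.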

How the data were processed

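The 42 genes, the pathway and marker lists and the pairs were chosen with earlier results of these data known. Per the file headers and the README files deposited with the samples, reads were placed on mm10 with GENCODE M21. The authors deposited expected counts, TPM and percent of isoform abundance per gene or transcript from aligned reads, and estimated counts and TPM from a read-based quantification; no source used here names the programs. The annotation used here for coordinates, exon overlaps and coding sequences was GENCODE M21, and promoters came from RefSeq on GRCm38.p6.

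From these, ratios were computed as log2(TPM + 0.1), means and SD over 2 libraries, and class sums. Genes with a mean under 1 TPM were left out of comparisons between libraries. Scaled counts used the median ratio over coding genes with a pseudocount of 0.5, and read-based gene values are sums over transcripts. Every gene with a mean of 1 TPM or more is given with both values, the others with their counts; transcripts are given at 10% or more for the 12 highest genes and the Pde4 genes, and up to 3 genes per pathway list, of which 1 is not reported here. Other transcripts (such as those of Adcy4 and Pde7a) were chosen after their values were seen. The labels give the pools different animal numbers but the same donor entry, which is the strain. Each pool was counted as 1 replicate because of the animal numbers. Floors cover counting error only. The scripts used Python 3.11.15, numpy 2.4.6, pandas 2.3.3, Biopython 1.88 and matplotlib 3.10.9, and the fold rule was tested on simulated data. The simulation changed only genes with high counts, by far more than 1.5-fold, and gave both libraries equal transcript lengths. It does not show how the rule acts on genes such as Adcy4 and Adcy7.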

Additional observations from a re-analysis of the deposited data

Results flagged for a closer look

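Pde6a, the photoreceptor phosphodiesterase, had 119 and 150 estimated counts in the read-based table, which served above as the alternative quantification. In the alignment-based table it had 4 and 0 expected counts. The read-based values exceed the 3 counts that a count of 0 allows. Its TPM was 3.66 and 4.35 in the read-based table, against 0.06 and 0.0 TPM in the alignment-based one. Nearly all of the read-based counts, 114 and 148, went to Pde6a-202, a transcript with 545 coding bases. Pde6a-201, with 2580 coding bases, had 5.50 and 1.84 counts there. Of the photoreceptor and pineal markers in the read-based table, Crx had 0.66 and 0.42 TPM, Rcvrn 2.30 and 0.63 TPM, Gnat1 1.25 and 0.51 TPM, and Asmt 0.070 and 0.19 TPM.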

How the results depend on the processing

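No paired analysis was possible because the 2 libraries belong to 1 group. Of the class sums, those of the read-based table were 366 TPM for cyclases, 578 for phosphodiesterases, 889 for PKA regulatory and 395 for PKA catalytic subunits, and rescaling to protein-coding genes gave 501, 806, 990.3 and 506 TPM. The cause of the first shift was not tested; the second follows from the smaller denominator. The number of genes past 1.5-fold was 5 with no filter on low values (10% of coding genes), 0 at a mean of 5 TPM or more (1.99%), 1 with a pseudocount of 1 (2.44%), 0 in the read-based table (8.54%), 0 on scaled counts (3.16%) and 2 on spike-in scaled counts (8.58%). Prkar1a over Prkar1b reversed in the read-based table (log2 −0.82), and the catalytic over cyclase ratio reversed without replicate 2 (log2 −0.086, against 0.11 without replicate 1). In the read-based table Prkar2a over Prkar2b moved within the spread (log2 −0.038), while Prkaca over Prkacb (−0.36) and Pde4a over Pde4b (−0.13) moved beyond it. All 19 pairs kept direction and side with a pseudocount of 1 or 0.01, and 15 of 19 did in the read-based table; with 1 library alone, where there is no spread, 19 of 19 kept direction without replicate 1 and 18 without replicate 2. The 7 genes under 1 TPM had 18 expected counts or fewer, too few for ratios between libraries.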
